A study of Mus musculus with 2 samples.

Results

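Plasmacytoid dendritic cells were examined in the optic nerves of Nf1OPG mice. They were taken as the kept cells with at least 2 Siglech UMIs, at least 2 UMIs summed over Ccr9, Klk1, Cox6a2 and Tcf4, and at most 2 UMIs summed over the microglia and macrophage genes Csf1r, Tmem119, P2ry12 and C1qa. A UMI, or unique molecular identifier, marks 1 captured RNA molecule. The rule found 68 cells among 25652. Nf1OPG mice carry 1 floxed and 1 mutant Nf1 allele together with GFAP-Cre, which deletes the floxed allele in cells of the GFAP lineage, and they develop optic gliomas. Nf1 is thus reduced in every other cell of these mice as well, plasmacytoid dendritic cells included. The series held 2 single-cell libraries of 1 genotype, each from the pooled optic nerves of 10 mice aged 12 weeks. The library titled control is called C-ON here, and the library titled FMC new is called FMC_new. The protocol in the labels also describes meningeal dura, which was stained and sorted for live cells; both libraries are labelled optic nerve, and whether they hold dural cells cannot be told from the labels. The titles do not explain these words, no wild type library was analysed here, and no condition could therefore be compared. Values of both libraries are given side by side, with intervals that cover counting error only.

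Plasmacytoid dendritic cells are rare cells of bone marrow origin that sense viral and self nucleic acids in endosomes, through the receptors TLR7 and TLR9, and are known for releasing large amounts of type I interferon once triggered. TCF4, a basic helix-loop-helix factor of the E protein class, sets up and maintains their program together with SPIB, RUNX2 and IRF8. They share some genes with B lymphocytes, and they differ from conventional dendritic cells, of which type 1 takes up dead cells and cross-presents antigen and type 2 presents antigen to helper T cells.

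E proteins bind the E-box, a sequence of 6 bases. Stretches of 80 bases upstream of the starts of the surface receptor Siglech, the secreted protease Klk1 and the chemokine receptor Ccr9 are shown because these genes chose the cells and each holds the E-box CAGGTG, or CACCTG on the opposite strand, in capitals. The sequences are RefSeq's on build GRCm38.p6, plus strand, at chr7:55768104-55768183, chr7:44225236-44225315 and chr9:123767089-123767168.
Siglech: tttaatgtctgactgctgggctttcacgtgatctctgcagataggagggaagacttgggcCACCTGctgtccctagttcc
Klk1: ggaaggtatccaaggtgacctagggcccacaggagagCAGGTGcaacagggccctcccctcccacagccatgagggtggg
Ccr9: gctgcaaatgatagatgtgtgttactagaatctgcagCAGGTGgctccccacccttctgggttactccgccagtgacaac
The motif began 20 bases before the start of Siglech, 87 before that of Klk1 and 85 before that of Ccr9. Among genes of the plasmacytoid identity list, 15 of 22 had an entry, with 19 promoters, and 7 of the 19 (36.8%) held CAGGTG on either strand within 250 bases of the start. Of all 32851 RefSeq promoters, 5657 (17.2%) held it. The palindrome CAGCTG stood in 5 of the 19 (26.3%) and in 4271 of all (13.0%). A match describes the letters and does not show that a factor binds there.

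After the filters on genes, UMIs and mitochondrial RNA, C-ON kept 8834 of 10845 barcodes with a median of 6810.5 UMIs, and FMC_new kept 16818 of 21341 with a median of 4676. The libraries shared 188 kept barcodes, none of them among the plasmacytoid cells. C-ON held 7 plasmacytoid dendritic cells, 0.0792% of its kept cells (exact 95% interval 0.0319 to 0.163). FMC_new held 61, which was 0.363% (0.278 to 0.466). The libraries differed in makeup, since 5565 cells of C-ON and 2161 of FMC_new fell in the oligodendrocyte gate, so the share was also taken over dendritic cells alone. The dendritic cells counted were the plasmacytoid cells and the type 1, type 2 and migratory cells that met no other gate. Plasmacytoid cells made up 7 of 255 such cells in C-ON (2.75%, 1.11 to 5.57) and 61 of 945 in FMC_new (6.46%, 4.97 to 8.21). These intervals overlapped. A median plasmacytoid cell had 6440 UMIs in C-ON, range 1726 to 15751, and 6644 in FMC_new, range 1498 to 15509. That was deeper than the median T cell, with 3486.5 and 3392 UMIs.

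The genes of the rule are given as a description. Siglech, a Siglec family receptor of plasmacytoid cells and microglia, had 3 to 16 UMIs per cell in C-ON and 2 to 38, median 13, in FMC_new. Klk1 was detected in 3 of the 7 cells of C-ON and in 36 of the 61 of FMC_new, with up to 52 UMIs in a cell, against 0% and 0.0549% of T cells. Cox6a2, the heart and muscle isoform of a cytochrome c oxidase subunit, was detected in 5 and 40 cells, against 0.116% and 0.631% of T cells. Ccr9, which guides cells to the gut and thymus, was detected in 3 and 37 cells, against 3.14% and 3.70% of T cells. Tcf4 was the least selective of the criteria. Summed over cells and scaled to counts per 1000000 UMIs (CPM), Tcf4 stood at 827 CPM in the plasmacytoid cells of C-ON and 919 in those of FMC_new, beside 337 and 357 CPM in oligodendrocytes. Klk1 by contrast was at 0 in the type 1, type 2 and migratory dendritic cells of both libraries.

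**Figure D1:**
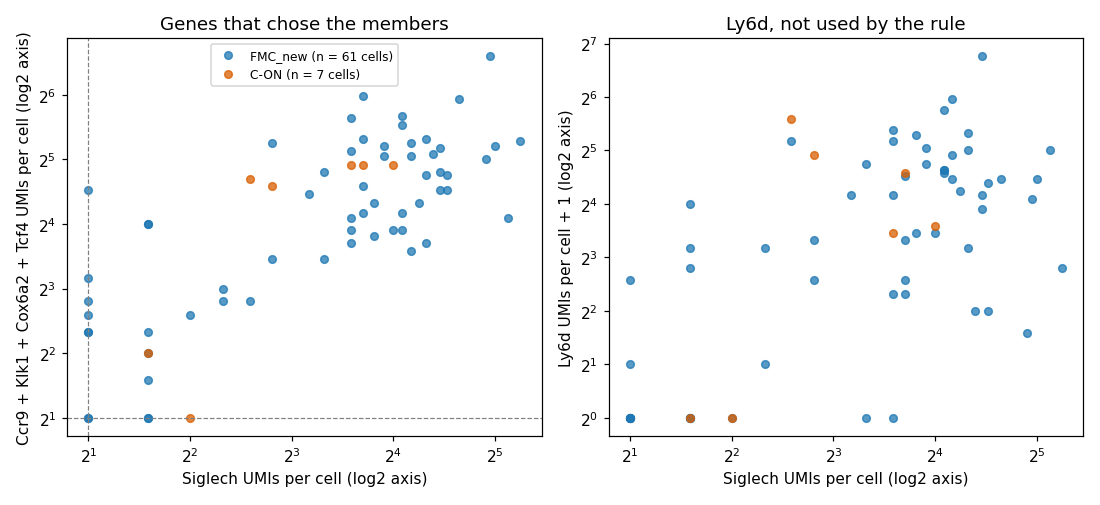
Each point is 1 plasmacytoid dendritic cell, orange for C-ON (7 cells) and blue for FMC_new (61 cells); the x axes give its Siglech UMIs on a log2 axis, the left y axis the summed UMIs of Ccr9, Klk1, Cox6a2 and Tcf4 on a log2 axis with the limits of the rule dashed, and the right y axis its Ly6d UMIs plus 1 on a log2 axis. Cells with few Siglech UMIs mostly lacked Ly6d, while 48 of the 50 with at least 5 had it.

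The label held for most but not all of these cells. All 3 of Ccr9, Klk1 and Cox6a2 were detected in 25 of the 68 cells, 2 of them in 20 cells, 1 in 9 and none in 14, so those 14 entered on Tcf4 alone beside Siglech. The 50 cells with at least 5 Siglech UMIs shared several plasmacytoid genes that the rule had not used. Bst2 and Irf8 were detected in all 50, Ly6d in 48 (96%) and Pacsin1 in 41 (82%), while Spib was detected in 33 (66%). The oligodendrocyte gene Mog was detected in 6 of them (12%) and the type 2 gene Cd209a in 20 (40%). Of the 50, 18 met the type 1 gate described below, 15 the type 2 gate and 4 the T cell gate. Xcr1, which the type 1 gate sums with Clec9a, was detected in 1 of the 50 (2%). The 18 cells with 2 to 4 Siglech UMIs were mixed. Bst2 was detected in 13 of them (72.2%), Ly6d in 5 (27.8%), Spib in 1 (5.56%) and Mog in 5 (27.8%). Just outside the rule, 58 cells had 1 Siglech UMI and met the other criteria. Of these, 3 (5.17%) had Ly6d, none had Klk1 or Cox6a2, and 21 (36.2%) had Mog. Just inside, the 8 cells with exactly 2 Siglech UMIs had Ly6d in 2, Klk1 in 1 and Mog in 3.

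In C-ON, the 7 cells fell into unlike profiles. Cells 4, 5 and 7 had every criterion gene, with 13, 16 and 12 Siglech UMIs, 14, 17 and 15 Klk1 UMIs, and 23, 11 and 10 UMIs of Ly6d. Cells 3 and 6 had 15 and 14 Cox6a2 UMIs and 47 and 29 Ly6d UMIs but no Klk1, Ccr9 or H2-Aa, and they carried 4 and 2 UMIs of the T cell receptor component Cd3e and 3 and 2 of Cd3d. Cell 2 had 169 H2-Aa, 7 Clec9a and 4 Xcr1 UMIs, no Ly6d, and lay in the type 1 dendritic cell gate. Cell 1 was the shallowest, with 1 Bst2 UMI. Summed levels of C-ON therefore rest on few cells: cell 2 gave 169 of the 212 H2-Aa UMIs and 19 of the 24 Irf7 UMIs.

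The cells also overlapped with the gates for other types, of which the type 1 and type 2 gates share limits on microglia genes with the rule. In both libraries together, 26 met the type 1 gate (at least 2 UMIs of Xcr1 plus Clec9a), 16 the type 2 gate (at least 2 Cd209a and 5 H2-Aa UMIs), 5 the T cell gate and 4 the oligodendrocyte gate, and 26 met no other gate. In comparisons below, the plasmacytoid group kept all its cells, while cells in more than 1 gate were left out of the other types. The 26 cells in no other gate carried the plasmacytoid genes at higher levels than all 68: Ly6d 3821 against 2292 CPM, Bst2 4626 against 3114, Dntt 214 against 116. Clec9a, 212 CPM in all 68, was at 77.1 CPM in those 26, and Cd209a, 347 CPM in all 68, at 25.7, as leaving out the cells of those gates requires. The doublet caller marked 1 of the kept cells in all and was taken as not working, so the part of doublets was not tested. Its median score was 0.115 in the plasmacytoid cells of C-ON beside 0.0542 in all other cells, and 0.0496 beside 0.0264 in FMC_new.

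Some markers of other types were at 0 in all 68 cells. These included Ncr1, Gzma and Prf1 of natural killer cells, Cd22, Pax5 and Fcer2a of B cells, Sdc1 of plasma cells, and Col1a1, Col1a2 and Dcn of fibroblasts. Other markers were detected in FMC_new: 1 of 4 natural killer genes, 3 of 7 B cell genes and 4 of 5 plasma cell genes. The 5 plasma cell genes summed to 202 CPM in C-ON and 1196 in FMC_new, against 5041 and 9020 in all other cells. Of 5 monocyte genes, Fn1 and Vcan were at 0 in all 68 cells, while Ccr2, Ly6c2 and Plac8, which plasmacytoid cells also express, were called at least 4-fold higher than in all other cells of FMC_new. The 5 together stood at 2058 CPM in C-ON and 6009 in FMC_new, against 364 and 529 in all other cells. RNA of pituitary and oligodendrocyte genes was also detected. Summed over 4 pituitary hormone genes, the plasmacytoid cells of FMC_new held 3786 CPM and the T cells of that library 11300.3, against 0 and 3.58 in C-ON, and growth hormone RNA (Gh) was present in every one of the 61 cells. Summed over 5 oligodendrocyte genes, plasmacytoid cells held 7034 CPM in FMC_new beside 3735 in T cells, and 1066 CPM in C-ON beside 4022. The FMC_new sum includes cells in the oligodendrocyte gate, so it cannot be read as free RNA alone. Cells 2, 6, 14 and 21 of FMC_new met that gate and had 17, 14, 18 and 15 Mog UMIs. No other cell there had more than 1. The part of free RNA in the results was not tested. Shares of T cells of the same library with a UMI are given for comparison.

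Genes of the plasmacytoid identity list, most of which encode surface proteins, were higher here than in the conventional dendritic cells next to them. The planned test required 10 cells per sum, which C-ON did not reach, so a gene was called when it differed at least 4-fold on the log2(CPM + 10) scale in FMC_new, the library with enough cells. On this scale 239 of 6145 genes were called higher than in type 2 dendritic cells, 3.89%, and 15 of the 17 identity genes outside the gates were among them. Against type 1 dendritic cells 277 of 6198 were called higher, 4.47%, and all 17 identity genes were among them. The median log2 difference of the list was 3.62 and 4.204, beside 0.40 and 0.26 over all genes. Against all other kept cells of FMC_new, where 138 of 7063 genes were called higher (1.95%) and 262 lower (3.71%), 14 of the 17 were higher and none lower. The list was composed from genes known in these cells and is measured in the cells the rule selected, so the counts describe the cells and do not test the rule.

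Ly6d, a GPI-linked surface protein of B cell and plasmacytoid progenitors, was a clear example. In C-ON it had 0, 0, 47, 23, 11, 29 and 10 UMIs in the 7 cells, and in FMC_new from 0 to 108 with a median of 10. Summed, that gave 2205 CPM (exact 95% Poisson interval 1828 to 2636) in C-ON and 2303 (2161 to 2452) in FMC_new. Only B cells came near, at 404 and 797 CPM, and type 2 dendritic cells were at 0 and 34.0. In FMC_new the level was 67.6-fold that of type 2 (95% counting interval 55.2 to 83.6) and 151-fold that of type 1 dendritic cells (113 to 206). With every cell thinned to 1000 UMIs, 62.3% of the plasmacytoid cells of FMC_new had a Ly6d UMI, beside 44.8% of B cells and 2.73% of T cells.

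Bst2, or tetherin, which holds budding virus at the membrane and is the antigen of antibodies against mouse plasmacytoid cells, had 2186 CPM in the cells of C-ON and 3232 in those of FMC_new. It was broadly detected, in 44.8% of T cells of FMC_new against 91.8% of plasmacytoid cells, and the level was 12.2-fold that of type 2 (11.2 to 13.3) and 9.01-fold that of type 1 (8.32 to 9.76). Mctp2, a membrane protein with calcium binding domains, had 150 UMIs in the 61 cells and 2 in type 2 dendritic cells of FMC_new, a ratio of 537 (146 to 4477). Cd7, an immunoglobulin family receptor of T and natural killer cells, was at 514 and 804 CPM, 23.2-fold type 2 in FMC_new. Ly6c2, a further Ly6 surface protein, stood far apart between the libraries, with 827 CPM in C-ON and 4027 in FMC_new. Reads of Ly6, Klk1 and Cd209 genes can be shared with close paralogs, so their counts are uncertain.

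**Figure D2:**
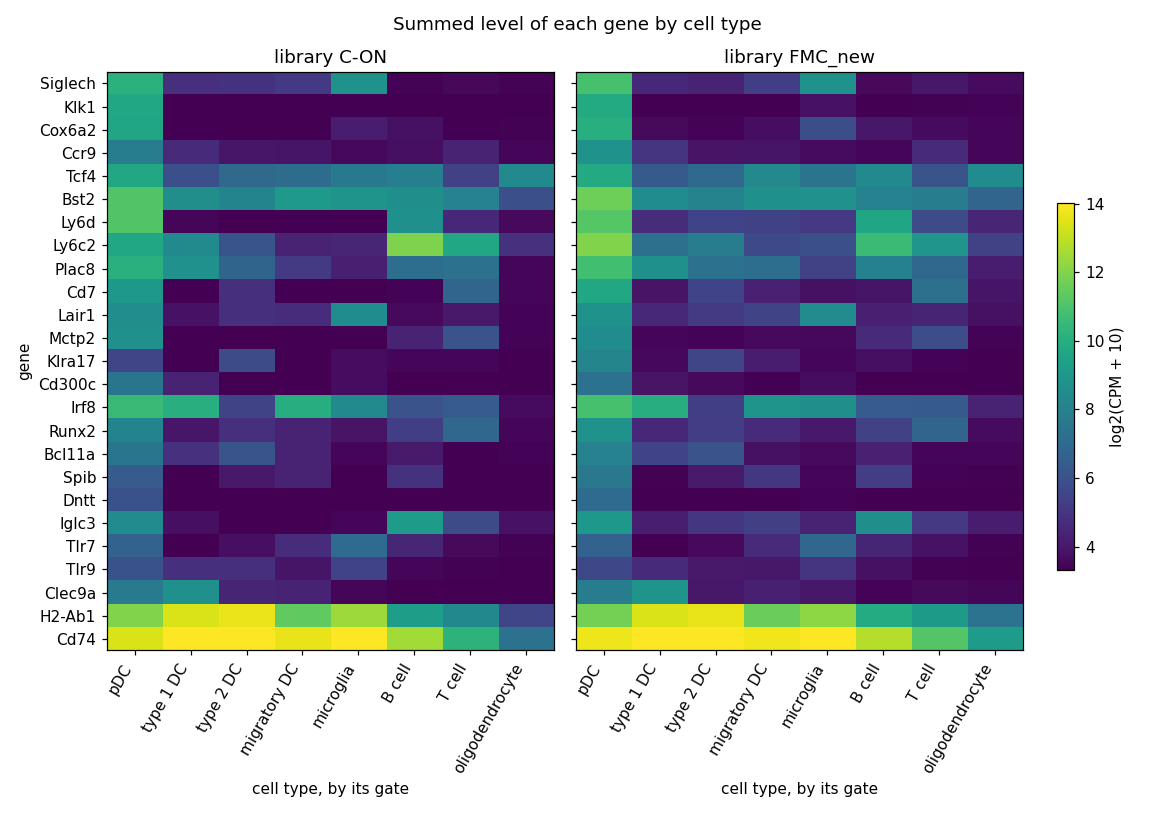
Colour gives log2(CPM + 10) of each gene (rows) summed over the cells of each type (columns) in C-ON (left) and FMC_new (right), with no error shown. Klk1 and Dntt are bright in the plasmacytoid column alone among the types drawn, Siglech also in microglia (443 and 425 CPM), and Ly6d and Iglc3 also in B cells.

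Of the transcription factors known from these cells, several were higher and were shared with other types in different ways. Spib, an ETS factor of plasmacytoid and B cells, was at 73.5 CPM in C-ON (20.02 to 188) and 183 in FMC_new (145 to 228). That was 25.4-fold type 2 in FMC_new (15.7 to 42.8), and 78 UMIs stood against 1 in type 1, a ratio of 574 (100.1 to 22969). Runx2, which governs their exit from bone marrow, was at 276 and 432 CPM, 15.2-fold type 2 and 32.3-fold type 1 in FMC_new. Irf8 separated the conventional types from each other instead. Its levels were 1488 and 1907 CPM, 65.4-fold type 2 in FMC_new (52.5 to 82.4) but 1.93-fold type 1 (1.78 to 2.08). Zeb2 showed the reverse order, 1.48-fold type 2 and 21.9-fold type 1. In all, 5 of the 12 factors outside the rule were called higher than type 2 (Spib, Irf8, Runx2, Bcl11a and Irf7) and 5 than type 1 (Spib, Runx2, Bcl11a, Zeb2 and Ets1), with none lower.

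Genes of the conventional lineage were mixed. Zbtb46, a repressor that marks conventional dendritic cells, had 0 UMIs in C-ON and 9 in FMC_new, 21.1 CPM (9.65 to 40.1), which was 0.297-fold type 2 and 0.229-fold type 1. Id2, which antagonises E proteins, was detected in 1 of the 7 cells of C-ON, with all 23 of its UMIs, and in 16 of the 61 of FMC_new, against 71.7% and 63.0% of T cells. Its level in FMC_new was 106 CPM, 0.353-fold that of type 2 (0.256 to 0.477) and 0.118-fold that of type 1 (0.0857 to 0.158). In C-ON that 1 cell put Id2 at 423 CPM, above the 195 of type 2 and below the 723 of type 1. Batf3, needed for type 1 cells, was 0.124-fold type 1 in FMC_new, and in C-ON it was at 73.5 CPM, from 4 UMIs in 1 cell, beside 30.6 in type 2 and 121 in type 1. Irf4, a factor of type 2 cells, had 0 UMIs in C-ON and 29 in FMC_new, 68.0 CPM there, which was 0.949-fold type 2 (0.621 to 1.40) and 5.77-fold type 1 (3.42 to 9.64). Clec9a, the dead cell receptor that sets the type 1 gate, was nonetheless detected in 57.4% of plasmacytoid cells of FMC_new against 0.878% of T cells. Over the 12 genes outside the gates, 1 was called higher and 2 lower than in type 2, and 2 higher and 2 lower of 10 tested against type 1. Lower calls made up 2.21% and 0.904% of all genes tested.

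Of the endosomal sensing genes, Tlr7 was called against both conventional types. This receptor for single-stranded RNA had 5 UMIs in C-ON and 39 in FMC_new, 91.9 CPM (29.8 to 214) and 91.5 (65.0 to 125). It was present in 3 of 7 and in 26 of 61 cells (42.6%), against 0.814% and 1.81% of T cells. Microglia reached the same range at 124 and 105 CPM. Type 1 dendritic cells had no Tlr7 UMI in either library, so the plasmacytoid level was at least 95.7-fold higher in FMC_new, against a floor of 3 counts, and type 2 cells had 6 UMIs there, a fold of 46.6 (19.6 to 135). Tlr9, the receptor for unmethylated CpG DNA, was lower in count, with 3 and 17 UMIs, 55.1 CPM (11.4 to 161) and 39.9 (23.2 to 63.8), and its fold in FMC_new was 6.09 over type 2 (2.996 to 12.2) and 2.66 over type 1 (1.43 to 4.72). The chaperone Unc93b1, which carries these receptors to the endosome, was at 551 and 638 CPM, 2.17-fold type 2 and 1.51-fold type 1 in FMC_new. The nuclease Pld4 was at 588 and 776 CPM. Of the sensing genes, 2 of 15 were called higher than type 2 (Tlr7 and Irf7) and 2 of 14 higher than type 1 (Tlr7 and Ptprs). None was called lower. Over all genes tested, 3.89% and 4.47% were called higher. The median log2 difference of the sensing list was 0.75 and 0.52, beside 0.40 and 0.26 over all genes.

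No interferon transcript was found. All 20 type I and type III interferon genes had 0 UMIs in all 68 cells, among 54426 UMIs in C-ON and 426363 in FMC_new, which allows a level of up to 8.65 CPM per gene in FMC_new and 67.8 in C-ON. Irf7, the factor that drives interferon alpha genes, was at 441 CPM in C-ON (283 to 656), mostly from cell 2, and 486 in FMC_new (422 to 556), where 48 of 61 cells (78.7%) had it against 23.3% of T cells. It was 6.48-fold type 2 (5.34 to 7.85) and 1.67-fold type 1 (1.43 to 1.95) in FMC_new, and 0.730-fold type 1 in C-ON (0.464 to 1.10). Interferon-stimulated genes were not raised as a group. Of 16 tested, Ifi44 and Bst2 were called higher than type 2, and Cxcl9 and Cxcl10 lower, with a median log2 difference of 0.42 beside 0.40 over all genes. Against type 1 the median was -0.36 beside 0.26. Isg15 was present in 34.4% of plasmacytoid cells of FMC_new and 24.6% of T cells. The receptor subunits Ifnar1 and Ifnar2, at 181 and 389 CPM in FMC_new, were not called in either comparison.

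**Figure D3:**
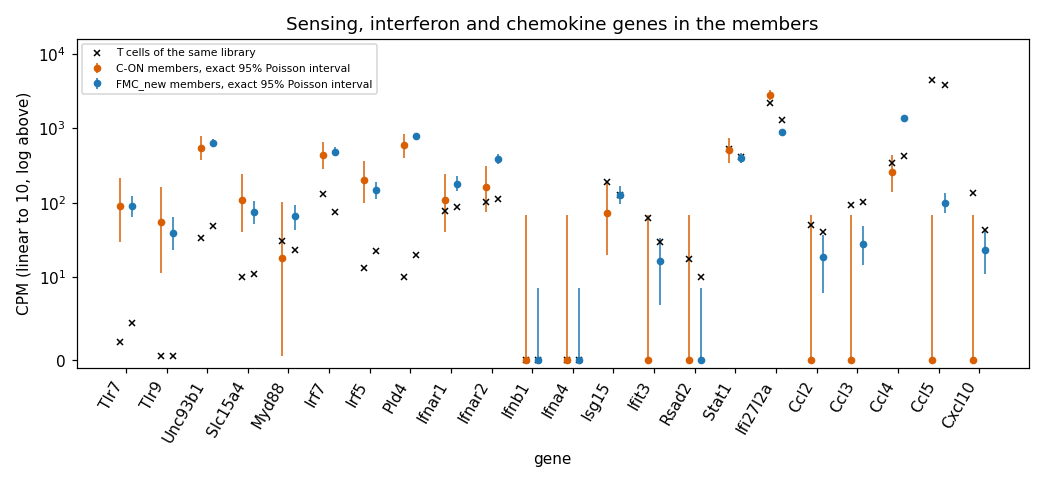
Points give the CPM of sensing, interferon and chemokine genes in the plasmacytoid cells of C-ON (orange) and FMC_new (blue) with exact 95% Poisson intervals, and crosses the level in T cells of the same library; the y axis is linear to 10 CPM and logarithmic above. Ifnb1 and Ifna4 are at 0 in both libraries, and Tlr7 is at 91.9 and 91.5 CPM. Among genes whose libraries are far apart are Ccl4 (257 and 1367 CPM) and, the other way, Ifi27l2a (2793 and 887 CPM).

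Several genes shared with lymphoid progenitors were also higher. Dntt, the terminal transferase that adds bases at antigen receptor joints (GRCm38 19:41029275-41059525), was detected in 3 of the 7 cells of C-ON, with 1 UMI each, and in 24 of the 61 of FMC_new, with up to 6 UMIs. Type 1, type 2 and migratory dendritic cells and B cells had no Dntt UMI in either library, and 0.0274% of T cells of FMC_new had one. The plasmacytoid level in FMC_new, 124 CPM (93.1 to 163), was at least 127-fold higher than type 2 and at least 130-fold higher than type 1. Iglc3, an immunoglobulin lambda constant gene whose counts can mix with its paralogs, had 19 and 214 UMIs, 349 and 502 CPM, close to the 580.0 and 388 CPM of B cells. Its level was 22.9-fold type 2 (17.3 to 30.6) and 58.4-fold type 1 (39.0 to 90.6) in FMC_new. Blnk, the adaptor of B cell receptor signalling, was 19.3-fold and 62.1-fold higher, and Il7r 5.60-fold and 97.8-fold. The recombinase genes Rag1 and Rag2 and the B cell factors Pax5 and Ebf1 had 0 UMIs. Of 13 genes of this group outside the gates, 7 were tested. Of these, 4 were called higher than type 2 and 5 than type 1, beside 3.89% and 4.47% of all genes tested. A gene was tested at a mean of at least 20 CPM, so Dntt entered through the plasmacytoid cells alone and genes at 0 there dropped out. The counts therefore describe the cells and test nothing.

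Antigen presentation genes were present at lower levels than in type 1 and type 2 dendritic cells, but not throughout than in migratory ones. H2-Ab1, an MHC class II beta chain, was at 3987 CPM in C-ON and 3499 in FMC_new, against 13357 and 12723 in type 2 and 10799 and 10876 in type 1. The folds in FMC_new were 0.275 (0.261 to 0.290) and 0.322 (0.305 to 0.339). Migratory dendritic cells had H2-Ab1 at 2659 CPM in C-ON and 3071 in FMC_new, below the plasmacytoid level. Their H2-Eb1, at 3756 and 4327 CPM, was above the 2591 and 3063 of plasmacytoid cells. Cd74, the invariant chain, was 0.329-fold type 2 and 0.421-fold type 1. The type 2 gate requires H2-Aa, so that difference is partly built in, while the type 1 gate uses no class II gene. The plasmacytoid cells in no other gate had 2519 CPM of H2-Aa beside 4515 in all 68, so the cells shared with those gates raised the level. The costimulatory genes Cd40 and Cd80 had 2 and 4 UMIs in all 61 cells of FMC_new, 0.0754-fold and 0.0882-fold type 2. At 4-fold, 3 of 11 genes of the group were called lower than type 2 (H2-Eb1, Cd40 and Cd80) and none of 10 lower than type 1, with median log2 differences of -1.61 and -1.32.

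Among receptors for growth factors and migration, few genes were called. Csf2rb2, the mouse beta chain used by the IL-3 receptor, was at 165 CPM in C-ON and 274 in FMC_new, 13.7-fold type 2 (10.0 to 19.0) and 9.90-fold type 1 (7.44 to 13.2). Flt3, the receptor whose ligand sustains dendritic cells, was at 129 and 188 CPM and was not called against either conventional type. Cxcr3, the receptor for Cxcl9 and Cxcl10, and S1pr4 were called higher than type 2 in FMC_new, on 29 and 23 UMIs. Cxcr3 was detected in 27.9% of plasmacytoid cells there, below the 44.9% of T cells.

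The chemokines split by gene. Ccl4, a chemokine that attracts T cells and macrophages (GRCm38 11:83662584-83664683), had 14 UMIs in C-ON and 583 in FMC_new, or 257 CPM (141 to 432) and 1367 (1259 to 1483). The 2 libraries did not overlap within counting error, and Ccl4 was also higher in FMC_new in type 2 cells (712 and 1007 CPM), microglia (1165 and 1832) and T cells (345 and 419). Plasmacytoid Ccl4 was 0.361-fold type 2 in C-ON (0.196 to 0.611) and 1.36-fold in FMC_new (1.24 to 1.48), so its direction depended on the library. Ccl3, a related ligand, had 0 and 12 UMIs, 0.101-fold type 2 in FMC_new (0.0522 to 0.178), and in C-ON it was at least 3.33-fold lower. Ccl5 was at 0 and 101 CPM, present in 29.5% of plasmacytoid cells of FMC_new against 68.6% of T cells. Tnf had 1 and 5 UMIs, 0.0432-fold type 2 in FMC_new.

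Grn, progranulin, a secreted lysosomal growth factor, was at 974 and 1452 CPM, near the 1379 and 1301 of microglia, and was 6.86-fold type 2 (6.14 to 7.68) and 4.47-fold type 1 (4.04 to 4.94) in FMC_new. Il12a, the alpha subunit of interleukin 12, had 9 UMIs in 2 cells of C-ON and 17 UMIs in 11 cells of FMC_new, where 0.0549% of T cells had it. There were 0 in type 1 and 1 in type 2 dendritic cells of both libraries summed. Its partner Il12b had 0 and 1 UMI. Gzmb, a cytotoxic protease, was at 0 in all 68 cells. Of the Siglec and adaptor genes, Siglece was called lower than type 2, and Cd33 and Tyrobp, the adaptor through which Siglech signals, higher than type 1 in FMC_new.

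Secretory and metabolic genes differed little. None of 18 genes of the secretory pathway and unfolded protein response was called in either comparison, with medians of 0.74 and 0.53 beside 0.40 and 0.26 over all genes. Xbp1, which expands the secretory apparatus, was at 294 and 303 CPM. Of the 8 cytochrome c oxidase subunits other than Cox6a2, none was called. Cox6a1, the widespread isoform, was at 184 CPM in C-ON and 270.0 in FMC_new. It was at 231 and 268 in type 2 cells and at 318 and 316 in type 1 cells. These are sums over all plasmacytoid cells, and whether single cells held both isoforms was not tested. Of the proliferation genes, Mki67 had 2 UMIs and Top2a none in the 61 cells of FMC_new. There 3 of 4 tested were called lower than type 2 (Mki67, Top2a and Ube2c), beside 2.21% of all genes tested. None of 2 tested was called lower than type 1, and the 1 tested against all other kept cells was not called. In C-ON 3 of 7 cells had Top2a, 7 UMIs in all, against 9.88% of T cells.

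A count model was added after these values were seen. The plan left out any sum of fewer than 10 cells, which removed C-ON and with it the test; here its 7-cell sum was kept, with 8 sums of 4 dendritic cell types in 2 libraries, library as a block, and 3 residual degrees of freedom. By edgeR's quasi-likelihood test with Benjamini-Hochberg adjustment over 9501 genes, 338 genes were higher (3.56%) and 611 lower (6.43%) than in type 2, and 439 higher (4.62%) and 462 lower (4.86%) than in type 1. Called against both were 224 higher and 219 lower genes. The cells were chosen by other genes of the same RNA, and each library came from 1 pool, so these p-values concern these 2 pools. Identity genes were called higher in 15 of 17 and 16 of 17, and lymphoid-shared genes in 5 of 8 in each comparison. The lymphoid-shared calls include Dntt, which passed the filter on low counts only through the plasmacytoid sums. MHC class II and costimulation genes were called lower in 11 of 12 against type 2 and 9 of 12 against type 1. Of 18 secretory genes none was called. The 10 lower genes with the largest fold had no UMI in the plasmacytoid cells of either library, and the 10 such higher genes had none in the type 1 and type 2 cells of C-ON, so their fitted folds depend on the prior count and are not given.

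In that model Ly6d was higher by 6.80 on the log2 scale than in type 2 (SE 0.72, edgeR adjusted p = 4.95e-05, 3.72e-52 to 0.0247 over the alternatives). Runx2 was higher by 3.34 (SE 0.32, edgeR adjusted p = 1.99e-05, at most 0.00285 over the alternatives) and by 4.66 against type 1. Tlr7 was higher by 4.68 than in type 2 (SE 0.59, edgeR adjusted p = 0.000257, at most 0.00276). H2-Ab1 was lower than in type 1, at -2.10 (SE 0.20, edgeR adjusted p = 1.96e-05, at most 0.00079), a comparison whose gate used no class II gene. Other calls did not hold under every alternative. Among them were Dntt and Il12a, which passed the filter on low counts only through the plasmacytoid sums. Their adjusted p-values are therefore not given as tests. Zbtb46 was lower than in type 2 (-2.52, edgeR adjusted p = 0.0104) and reached an adjusted p of 0.165 in 1 alternative. Cbfa2t3, a corepressor named among the plasmacytoid factors, was lower than in both types, at -1.88 and -1.95 (edgeR adjusted p = 0.013 and 0.0128, at most 0.0763 and 0.0936). Ccl4 was not called, at -0.75 against type 2 (edgeR adjusted p = 0.33).

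**Figure D4:**
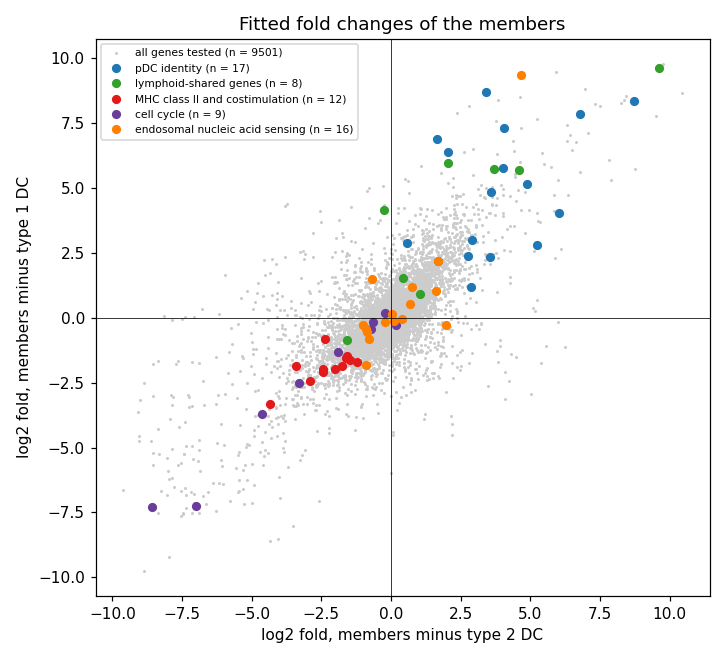
Each point is 1 of the 9501 genes in the edgeR model with the 7-cell sum of C-ON kept in, grey for all genes and coloured for 5 lists; the x axis gives the log2 fold of plasmacytoid cells over type 2 and the y axis over type 1 dendritic cells. Identity genes (blue) and most lymphoid-shared genes (green) lie above 0 on both axes, and MHC class II genes (red) lie below 0 on both.

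Ranked by level over all other kept cells in both libraries, 256 genes met the rule of at least 3-fold in each library and a UMI in 20% of the cells, and the first 20 are described here as the genes of the selected cells. Dntt, Cd300c, Smim5, Spib and Upb1 were already in the lists. Gm12253, an unnamed gene model, was at 239 CPM in C-ON and 183 in FMC_new, present in 55.9% of the 68 cells against 0.930% and 0.521% of T cells, with 0.320 and 0.446 CPM in all other cells. Cd209d, a C-type lectin of the Cd209 cluster whose reads may be shared with its paralogs, was at 220.5 and 483 CPM against 0.578 and 2.72. Atp2a1, the fast muscle calcium pump, was at 36.7 and 167 CPM, beside Cox6a2 a further gene best known from muscle, and Olfr164, an olfactory receptor gene, was at 110.2 and 124 CPM. The kallikrein Klk1b27, whose reads may be shared with close paralogs, was at 129 and 188 CPM. The others included Gm829, Gm21762, Gm34680, Paqr5, Cdh5, Havcr1, Eldr, Sh3bgr and Gapt.

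Across the 8 types in the 2 libraries, 16 points that share libraries, depth and pools, the genes whose log2(CPM + 10) was most like that of Siglech were Lair1 (Pearson r = 0.970), Gm5086 (0.969) and Man1c1 (0.955). Lair1, an inhibitory collagen receptor, was at 367 and 419.8 CPM in plasmacytoid cells and 358 and 348 in microglia, the other type with Siglech. The next included Epha2, Eef2k, Snx5, Carmil1, Gm17066 and Slco4a1, at 0.953 to 0.921.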

How the data were processed

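Droplet-based 5' single-cell RNA libraries of optic nerve were sequenced by the authors, and the deposited counts are raw UMI counts per gene and barcode from Cell Ranger 7.2.0 on a Cell Ranger mm10 reference (GRCm38). The submitters' notes also name Seurat 5.2.1, which made none of the files used. Barcodes with 500 to 5000 genes, 500 to 20000 UMIs and at most 5% mitochondrial UMIs were kept. Library totals were 85101211 UMIs in C-ON and 129113325 in FMC_new. No cell annotation was used; all types are gates on raw UMIs. UMIs were summed per library and type and scaled to CPM, with exact Poisson intervals, and exact Clopper-Pearson intervals for shares. Folds were taken on CPM, and calls at 4-fold on log2(CPM + 10) among genes with a mean of at least 20 CPM that set no gate. edgeR 4.0.16 (TMM) and DESeq2 1.42.0 ran in R 4.3.3, other steps in Python 3.11.15 with scipy 1.17.1; the edgeR fit was tested on simulated data. Doublets were sought with Scrublet in scanpy 1.11.5. Shares were also taken after thinning to 1000 UMIs per cell. Genes named were those of the rule, of the gene lists, the first 20 over all other cells, up to 10 in each direction called against both dendritic types, and the 10 most like Siglech. Cells and gene lists were chosen with earlier results of these data known. Alternatives changed the rule's limits, the pseudocount, the scaling, the filter, the block, the depth and the tool. Nothing says that the pools hold separate mice, so the spread between the libraries may be technical. Some genes of these lists are not reported here.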

Additional observations from a re-analysis of the deposited data

How the results depend on the processing

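The share of plasmacytoid cells, 0.363% in FMC_new and 0.265% over both libraries, moved to 0.250% and 0.175% with no microglia and macrophage UMI allowed, to 0.268% and 0.195% with 5 Siglech UMIs required, and to 0.137% and 0.101% for cells in no other gate; single libraries gave 0.0792% to 0.363%. The median level of identity genes, 343 CPM, was 165 in C-ON alone and 352 in FMC_new alone. Counts at 4-fold depended on the pseudocount: with 30 CPM they were 91 higher and 72 lower against type 2 (239 and 136 with 10 CPM) and 112 and 20 against type 1 (277 and 56). In C-ON alone they were 415 and 283 against type 2 and 368 and 138 against type 1. Lower genes against type 2 numbered 208 with 5 Siglech UMIs, 295 for cells in no other gate and 239 thinned; against type 1 they numbered 88 with 3 Siglech UMIs, 182 with 5, 289 in no other gate and 234 thinned. The edgeR counts against type 2 (338 higher, 611 lower) were 192 and 359 without the library block and 126 and 220 thinned, with 225 higher by DESeq2. Against type 1 (439 and 462) they were 259 and 220 without the block and 155 and 164 thinned; 284 were higher for cells in no other gate, 727 lower without the filter on low counts and 241 lower by DESeq2. Of 16 genes followed singly, uncalled differences turned for Ccl4 against type 2, to 0.049, and Irf7 against type 1, to 0.24, both thinned; over all named genes, 30 uncalled differences turned for cells in no other gate, 29 thinned, 22 with 5 Siglech UMIs and 17 with DESeq2. Of 193 calls in named genes none reversed where a fit gave a value; 64 were lost with DESeq2, 56 without the block, 37 of the 181 fitted for cells in no other gate and 27 of the 118 fitted thinned. Leaving out a library leaves the model no residual degrees of freedom, so no test. The pairing of types within a library is the block; its removal is given above. The cause of these differences was not tested. Depth limits the 7 cells of C-ON most: a gene at 0 there may reach 67.8 CPM.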
